A study of Setaria viridis with 15 samples.

Results

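In shoots of green foxtail (Setaria viridis), 4 transcripts, picked from 28032 genes in the count table, were nearly silent in plants grown without bacteria and present in every library of plants grown beside a bacterial isolate. Other genes had this pattern too, among them LOC117861344, with 4 control counts. They encode an ervatamin-B-like cysteine protease (LOC117833743), an indole-2-monooxygenase-like cytochrome P450 (LOC117861752), a proline--tRNA ligase, cytoplasmic-like (LOC117860973) and a 28 kDa heat- and acid-stable phosphoprotein-like protein (LOC117850329). They were picked by name from earlier results on these same libraries, for their few control counts and large rises beside isolates. Their difference from controls is therefore a description here and carries no test. The values that follow ask how the 4 transcripts varied together from library to library once they were on. Such co-variation is not a stated ground of their choice, though the choice was made on these same libraries.

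Wild-type (WT) seedlings grew in sealed plates of plant medium that enclosed a small LB dish, so that plant and bacteria shared the air only. The groups were 4 libraries with the isolate AI2.2-A, 3 with CTB P6B8, 4 with MTS P5D6 and 4 mock controls with no bacteria on the dish. The 5-day-old seedlings were moved to the plates 2 days before co-culture, 2 per plate, and 20 µL of bacterial suspension went onto the dish of the isolate plates. Shoots were taken after 7 days under a 12 h photoperiod, and the labels give each library as a biological replicate without saying how many plates it pooled. The series states the response of the plant to bacterial volatiles as its question.

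Papain-like cysteine proteases, the family of ervatamin, are made as inactive precursors and break down proteins in the vacuole and outside the cell, in ageing leaves, seeds and defence. Indole-2-monooxygenases are best known from maize, where the enzyme BX2 oxidises indole on the way to benzoxazinoids, defence compounds of grasses. Proline--tRNA ligase loads proline onto its tRNA for protein synthesis, and the mammalian namesake of the phosphoprotein was described as a binding partner of platelet-derived growth factor.

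Library totals ran from 13852517 to 25123025 counts, and 20310 genes were tested. All 43 shoot marker genes (light-harvesting proteins, photosystem subunits and enzymes of carbon fixation) were detected in every library. AI2.2-A replicate 4 stood apart from its group on the second principal component, where it had 21.2, its 3 fellow libraries 45.6 to 54.3 and CTB P6B8 libraries 7.53 to 21.2. Values without this library are given beside the results it enters most. In bulk shoots, fewer cells with a transcript and less of it per cell cannot be told apart.

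The protease transcript swung widely between replicates. In CPM, counts scaled to a common library total, it had 119, 40.6, 12.5 and 20.8 CPM in AI2.2-A replicates 1 to 4 and 7.03, 72.8 and 5.60 CPM in CTB P6B8 replicates 1 to 3. It had 14.1, 25.9, 0.877 and 4.56 CPM in MTS P5D6 replicates 1 to 4, against 0, 0.109, 0.229 and 0.0517 CPM in the controls. AI2.2-A replicate 1, CTB P6B8 replicate 2 and MTS P5D6 replicate 2 were each the highest of their group, and the highest library of a group exceeded the lowest 9.51-fold with AI2.2-A, 13.0-fold beside CTB P6B8 and 29.5-fold beside MTS P5D6. MTS P5D6 replicate 3 rested on 17 counts (95% exact Poisson interval 9.90 to 27.2), and the 4 controls held 6 counts together. Intervals on counts here cover counting error only.

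The monooxygenase transcript swung over a narrower range. It had 12.7, 1.70, 9.93 and 5.998 CPM in AI2.2-A replicates 1 to 4 and 3.31, 14.6 and 2.13 CPM in CTB P6B8 replicates 1 to 3. It had 5.09, 2.88, 1.44 and 4.87 CPM in MTS P5D6 replicates 1 to 4, against 0.0675, 0.0543, 0.153 and 0.0517 CPM in the controls, which held 5 counts in all. Its high libraries were AI2.2-A replicates 1 and 3 and CTB P6B8 replicate 2, and its low ones AI2.2-A replicate 2 and MTS P5D6 replicate 3. Highest exceeded lowest 7.47-fold within AI2.2-A, 6.88-fold within CTB P6B8 and 3.53-fold within MTS P5D6.

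The proline--tRNA ligase-like transcript had 5.07, 12.2, 0.676 and 5.28 CPM in AI2.2-A replicates 1 to 4 and 17.1, 0.576 and 1.51 CPM in CTB P6B8 replicates 1 to 3. It had 1.37, 15.3, 3.35 and 10.9 CPM in MTS P5D6 replicates 1 to 4, against 0, 0.0543, 0.0763 and 0.0517 CPM in the controls, which held 3 counts in all. CTB P6B8 replicate 1 was its highest library and CTB P6B8 replicate 2 its lowest, so 1 group spanned its whole range. That span was 29.7-fold, against 18.1-fold within AI2.2-A and 11.1-fold within MTS P5D6.

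The phosphoprotein-like transcript had 8.06, 25.4, 2.96 and 21.6 CPM in AI2.2-A replicates 1 to 4 and 60.0, 3.63 and 8.62 CPM in CTB P6B8 replicates 1 to 3. It had 14.3, 40.8, 22.0 and 25.6 CPM in MTS P5D6 replicates 1 to 4, against 0, 0.272, 0.229 and 0.103 CPM in the controls, which held 10 counts in all. CTB P6B8 replicate 1 was again the highest library, and AI2.2-A replicate 3 and CTB P6B8 replicate 2 the lowest of their groups. The span within a group was 8.57-fold with AI2.2-A, 16.5-fold beside CTB P6B8 and 2.85-fold beside MTS P5D6.

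**Figure D1:**
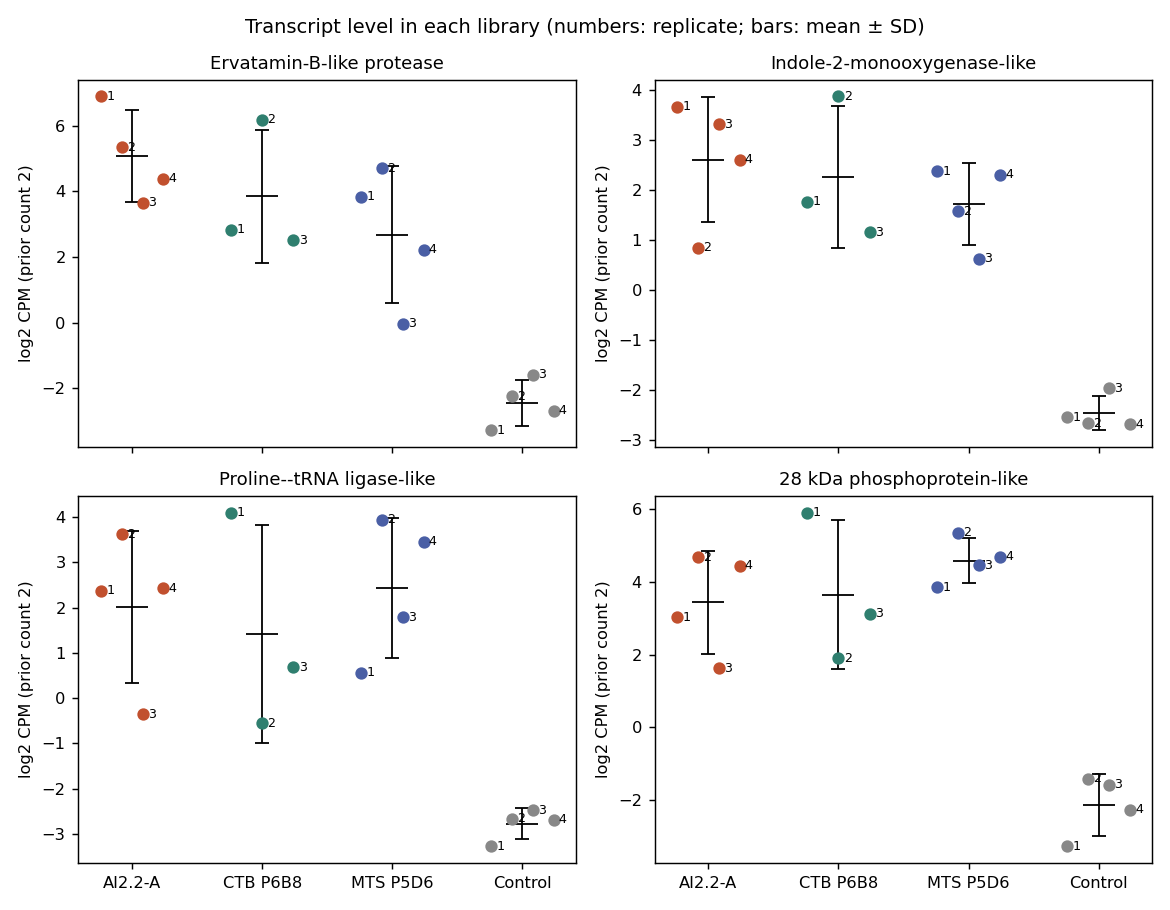
Level of each transcript in every library, as log2 CPM with a prior count of 2, with the 3 isolate groups left of Control; points carry the replicate number and bars show mean ± SD (n = 4, 3, 4 and 4). All 11 isolate libraries sit above all 4 controls in each panel, and points of the 3 isolate groups overlap.

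Every isolate library lay above every control for all 4 transcripts, by at least 3.83-fold between the lowest isolate library (MTS P5D6 replicate 3, protease) and the highest control. This separation is how the transcripts were chosen, and the 3 isolate groups share the same controls. The share of all tested genes that separate in this way is not given here. Genes outside the 4 did so too, among them LOC117861344 and LOC117842128. Their lowest isolate libraries had 3.72 and 22.6 CPM, against 0.103 and 6.52 CPM in their highest controls. In the test of each isolate against control, 47.7% of genes differed with AI2.2-A, 45.4% beside CTB P6B8 and 52.2% beside MTS P5D6. Summed counts over the isolate libraries, relative to scaled library totals, exceeded those of controls 571-fold (95% counting interval 262 to 1557) for the protease with AI2.2-A, 261-fold (120 to 713) beside CTB P6B8 and 125-fold (57.2 to 341) beside MTS P5D6. For the monooxygenase the ratios were 101 (43.2 to 313), 76.7 (32.6 to 238) and 46.0 (19.4 to 143) in the same order of isolates. For the tRNA ligase they were 130.2 (44.3 to 633), 144 (48.9 to 700) and 166 (56.5 to 807), and for the phosphoprotein 95.5 (51.8 to 199.6), 163 (88.3 to 340.3) and 168 (91.4 to 352). The protease and monooxygenase ratios were largest with AI2.2-A and smallest with MTS P5D6, while those of the other pair were smallest with AI2.2-A. Single libraries set the place of CTB P6B8 in this order. Its log2 fold change over AI2.2-A by edgeR was 0.18 for the protease and 0.16 for the monooxygenase without AI2.2-A replicate 1. Without CTB P6B8 replicate 1 it was -2.41 for the tRNA ligase and -1.21 for the phosphoprotein. AI2.2-A over MTS P5D6 kept its sign with any 1 library left out for 3 transcripts. Its log2 fold change ran from 1.12 to 2.89 for the protease, 0.72 to 1.43 for the monooxygenase and -1.23 to -0.49 for the phosphoprotein. For the tRNA ligase it ran from -1.05 to 0.19. The intervals of the 3 isolates overlap for each of the 4 transcripts. Most of their width comes from the 3 to 10 control counts that all isolates share, so their overlap does not compare the isolates.

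Between isolates, none of the 4 transcripts passed the test of a difference. By the quasi-likelihood test of edgeR, adjusted over all genes by the Benjamini-Hochberg method, 0 of 12 differences had an adjusted p under 0.05, and 1 of 12 had an unadjusted p under 0.05. DESeq2 and limma-voom also called 0 of 12. Over all genes, 10.4% differed between CTB P6B8 and AI2.2-A, 45.2% between AI2.2-A and MTS P5D6 and 26.3% between CTB P6B8 and MTS P5D6.

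The difference nearest to the threshold was that of the protease, which averaged 48.2 ± 48.5 CPM with AI2.2-A and 11.4 ± 11.2 CPM with MTS P5D6 (SD, n = 4 each). Its log2 fold change was 2.09 ± 0.86 (SE), with a 95% interval of 0.26 to 3.91 and an adjusted p of 0.0584 by edgeR. The authors' deposited table gives 2.06 with an adjusted p of 0.102 for this comparison. AI2.2-A was the higher library in 13 of 16 pairings, and the value depended on AI2.2-A replicate 1: without it the log2 difference was 1.12 (adjusted p = 0.307 by edgeR). Without AI2.2-A replicate 4 it was 2.34 (adjusted p = 0.0451), and over all alternatives its adjusted p ran from 0.00438 to 0.307. The difference was also called without AI2.2-A replicate 3 (2.40, adjusted p = 0.0376), without MTS P5D6 replicate 2 (2.89, adjusted p = 0.0264) and without any 1 of the CTB P6B8 libraries (2.08 to 2.09), so the call turns on the libraries used.

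The monooxygenase averaged 7.58 ± 4.79 CPM with AI2.2-A and 3.57 ± 1.73 CPM with MTS P5D6 (SD, n = 4 each), a log2 fold change of 1.10 with an interval of -0.13 to 2.32 and an adjusted p of 0.133 by edgeR. It was called without AI2.2-A replicate 2 (1.43, adjusted p = 0.0378), and over all alternatives its adjusted p ran from 0.0378 to 0.370. AI2.2-A was higher in 13 of 16 pairings of libraries here too. The tRNA ligase averaged 5.82 ± 4.78 CPM with AI2.2-A and 7.72 ± 6.49 CPM with MTS P5D6 (SD, n = 4 each), and the interval of its log2 fold change ran from -2.13 to 1.34. For the phosphoprotein, with 14.5 ± 10.7 CPM beside AI2.2-A and 25.7 ± 11.1 CPM beside MTS P5D6 (SD, n = 4 each), it ran from -2.22 to 0.58. All 4 intervals in this pair of isolates reach past 2 on the log2 scale in one direction, so the missed threshold does not show that the isolates act alike.

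CTB P6B8 means were carried by 1 library each. The protease averaged 28.5 ± 38.4 CPM in its 3 libraries, and its log2 fold change over MTS P5D6 was 1.30 with all libraries and -0.85 without CTB P6B8 replicate 2. The tRNA ligase averaged 6.39 ± 9.28 CPM (SD, n = 3), and its log2 fold change over AI2.2-A was 0.14 with all libraries and -2.41 without CTB P6B8 replicate 1. Without that library the tRNA ligase (-2.81, adjusted p = 0.0497 by edgeR) and the phosphoprotein (-2.03, adjusted p = 0.0345) were called lower with CTB P6B8 than with MTS P5D6. Over all alternatives the adjusted p of these differences ran from 0.0497 to 0.979 and from 0.0345 to 0.993.

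**Figure D2:**
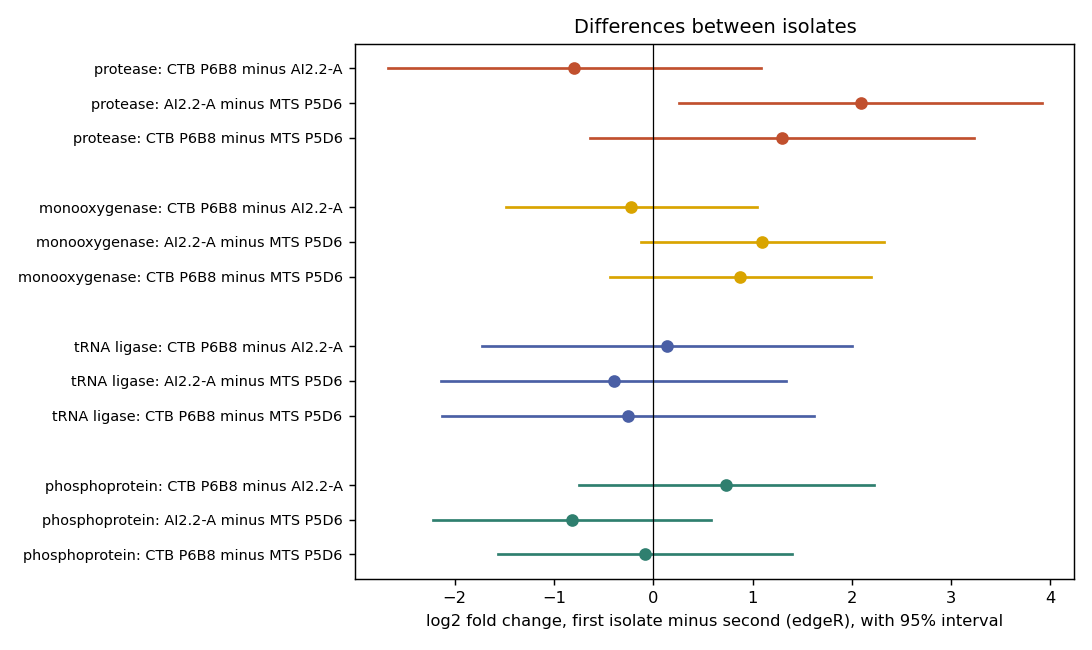
Log2 fold change of each transcript for the 3 pairs of isolates, first isolate over second, from edgeR with its 95% interval over all 15 libraries in 1 fit. All 12 intervals but that of the protease for AI2.2-A over MTS P5D6 (0.26 to 3.91) include 0.

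The tRNA ligase-like and phosphoprotein-like transcripts varied together between single libraries. After each group's mean log2 CPM was subtracted, their deviations over the 11 isolate libraries had a Pearson's r of 0.93 and a Spearman's rho of 0.96. With libraries exchanged only within their group, 3456 orders are possible, and the two-sided exact permutation p was 0.000289 for both measures, the smallest these orders can give, or 0.00174 adjusted over the 6 pairs of transcripts. Their libraries fell in the same order in all 3 isolate groups, and 10 of 11 deviations had the same sign.

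CTB P6B8 replicate 1 was above its group's mean by 2.69 for the tRNA ligase and by 2.27 for the phosphoprotein on the log2 scale, and CTB P6B8 replicate 2 stood at -1.97 and -1.75. AI2.2-A replicate 2 stood at 1.61 and 1.23, and AI2.2-A replicate 3 at -2.38 and -1.82. The exception in sign was AI2.2-A replicate 1, at 0.35 for the tRNA ligase and -0.41 for the phosphoprotein. Without AI2.2-A replicate 3 and CTB P6B8 replicate 1, the libraries farthest from the median of the tRNA ligase, r was 0.76 over 9 libraries (exact permutation p = 0.0243, before adjustment). Leaving out each library in turn gave 0.88 to 0.95, with 0.95 without AI2.2-A replicate 4.

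**Figure D3:**
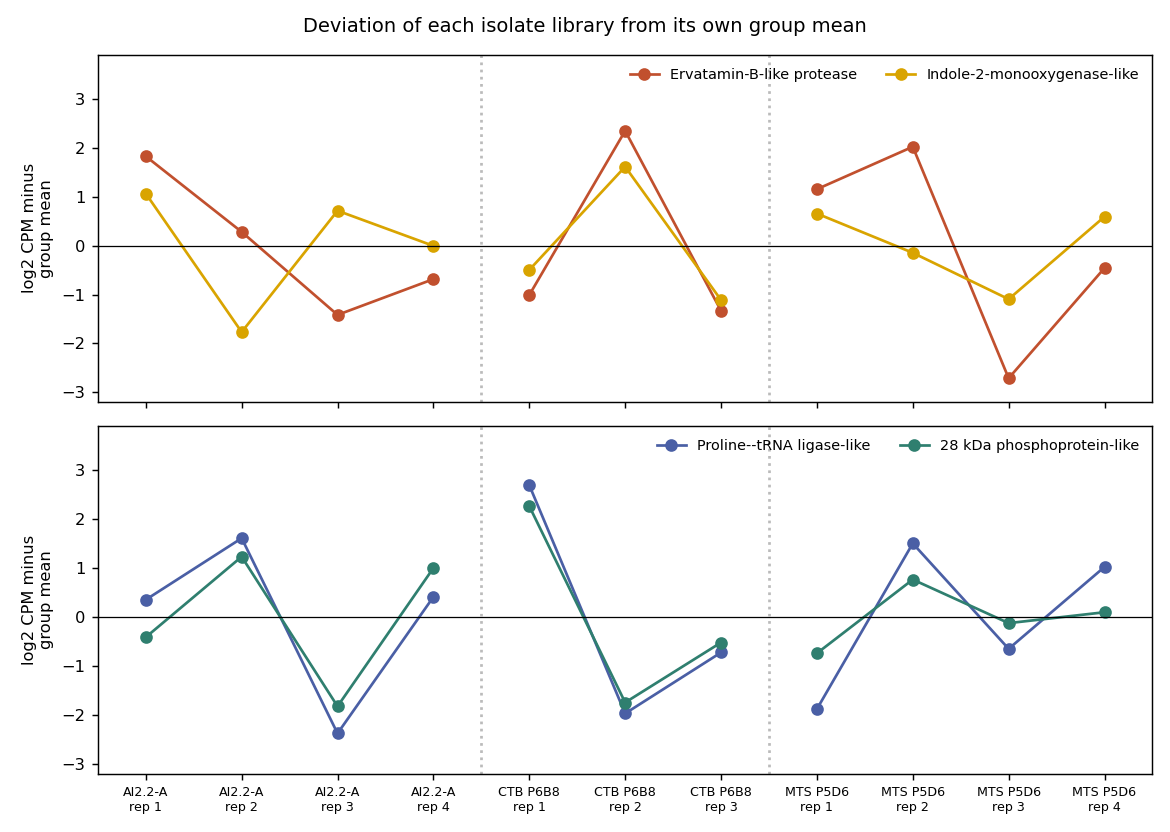
Deviation of each of the 11 isolate libraries from its own group's mean log2 CPM, with the protease and monooxygenase in the upper panel and the tRNA ligase and phosphoprotein in the lower one. The lower lines run together (r = 0.93) and the upper ones part in AI2.2-A replicates 2 and 3 (r = 0.55).

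For the protease and the monooxygenase the test was not passed. Their deviations had r = 0.55 and rho = 0.46 with each other (exact permutation p = 0.121 for r, 0.319 adjusted over 6 pairs), and r = 0.42 without CTB P6B8 replicate 2 and MTS P5D6 replicate 2. Both were high in AI2.2-A replicate 1 (1.82 for the protease and 1.06 for the monooxygenase) and CTB P6B8 replicate 2 (2.34 and 1.61). They parted in AI2.2-A replicate 2, at 0.28 for the protease and -1.77 for the monooxygenase, and in AI2.2-A replicate 3, at -1.42 and 0.71. Without AI2.2-A replicate 2 alone, r was 0.75 (exact permutation p = 0.0463, before adjustment), and p ran from 0.0463 to 0.417 over all alternatives.

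Across the divide, CTB P6B8 replicate 2 was the highest library of its group for the protease and the monooxygenase and the lowest for the tRNA ligase and the phosphoprotein. No such pair passed the test. The monooxygenase had r = -0.59 with the phosphoprotein (rho = -0.62, exact permutation p = 0.160, 0.319 adjusted) and r = -0.46 with the tRNA ligase (rho = -0.55, exact permutation p = 0.233, 0.349 adjusted). With any 1 library left out, r stayed at -0.73 to -0.40 and -0.60 to -0.27 for these pairs. Without both AI2.2-A replicate 2 and CTB P6B8 replicate 2, the libraries farthest from the monooxygenase median, r was -0.11 and 0.08. Their size thus rests on those 2 libraries together. The protease had r = -0.16 with the phosphoprotein (rho = -0.04, exact permutation p = 0.697, 0.837 adjusted) and an r of about 0 with the tRNA ligase (rho = 0.09, exact permutation p = 0.997 for r before and after adjustment). With the 2 libraries farthest from the protease median left out, r was 0.07 and 0.18 for these pairs.

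**Figure D4:**
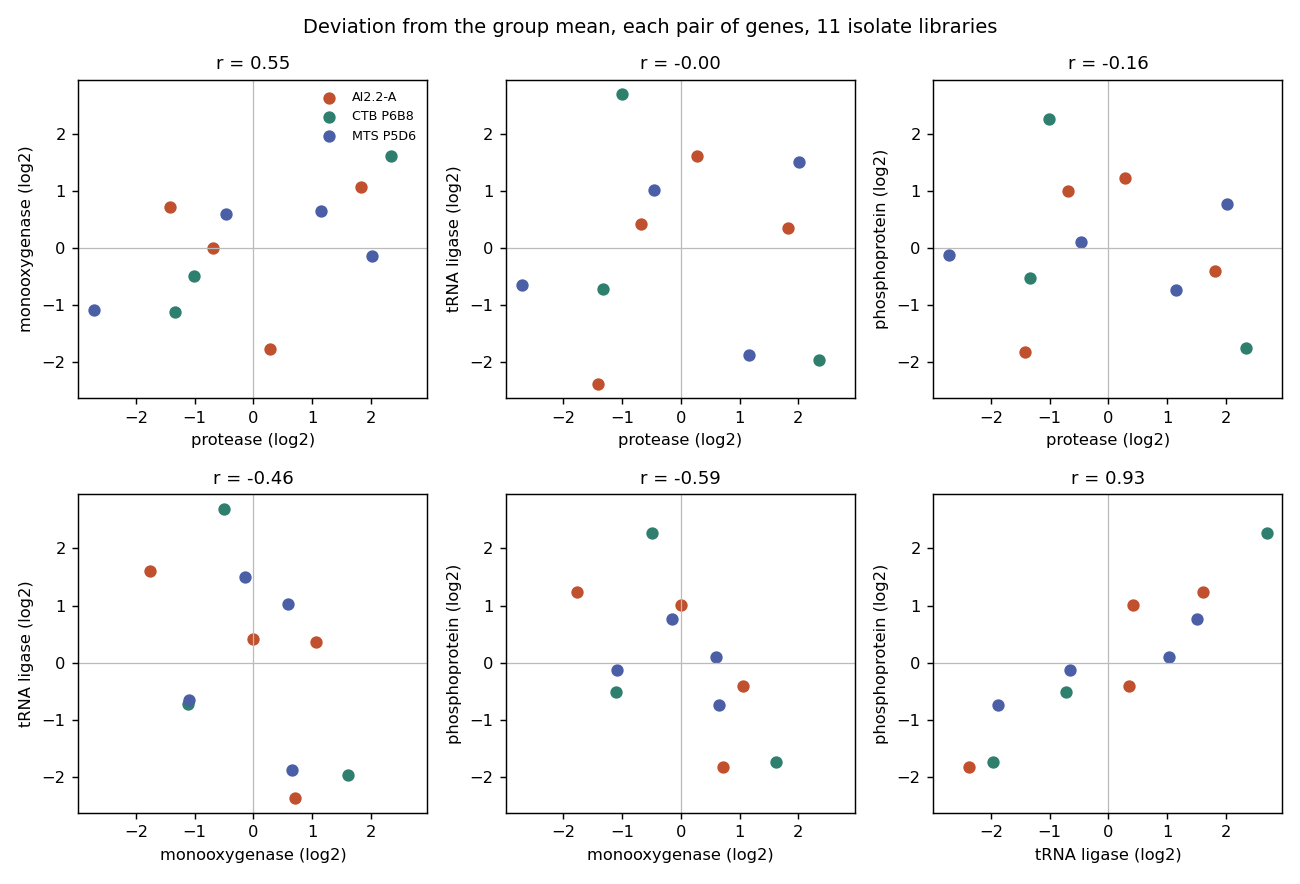
Deviations from the group mean (log2 CPM) for each of the 6 pairs of transcripts, 1 point per isolate library, coloured by isolate, with Pearson's r above each panel. Points of all 3 isolates follow 1 line for the tRNA ligase and the phosphoprotein (r = 0.93), and scatter in the other panels.

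Against all genes, the likeness of the tRNA ligase and the phosphoprotein was high without being exclusive. Among the 20309 other tested genes, the phosphoprotein ranked 12th by r for the tRNA ligase, and the tRNA ligase 16th for the phosphoprotein. The monooxygenase ranked 1563rd for the protease, and the protease 2091st for the monooxygenase. The 95th percentile of r over all tested genes was 0.60 for the protease, 0.66 for the monooxygenase, 0.63 for the tRNA ligase and 0.62 for the phosphoprotein, so r = 0.55 lies under it for both of the first pair. Among the 217 others with at most 10 control counts it was 0.544, 0.469, 0.715 and 0.761 in the same order. Among the 129 others with a within-group SD of at least 1 (log2) it was 0.509, 0.315, 0.923 and 0.930. The protease and monooxygenase, at r = 0.546, lie above it in both sets. The tRNA ligase and phosphoprotein, at r = 0.928, lie above it in the first set and between 0.923 and 0.930 in the other. Genes share libraries, so these ranks are descriptions.

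All 4 transcripts were among the most variable of the tested genes between replicates. The SD of log2 CPM within groups, pooled over the 3 isolate groups, was 1.85 for the tRNA ligase (5th highest), 1.84 for the protease (6th), 1.40 for the phosphoprotein (23rd) and 1.16 for the monooxygenase (68th). The median over tested genes was 0.18 and the 99th percentile 0.91. An SD of at least 1 was found in 130 (0.640%) of them. Wide swings were more common among the 218 tested genes with at most 10 control counts, the 4 included. Their median SD was 0.63, and 36 (16.5%) of them had an SD of at least 1. The counts behind the widest span, that of the tRNA ligase with CTB P6B8, were 382 (95% exact Poisson interval 345 to 422) in replicate 1 and 10 (4.80 to 18.4) in replicate 2.

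No correlation of the swings with measured library properties passed adjustment. Over the 11 isolate libraries, 12 correlations of the transcripts' deviations with log2 total counts, the scaling factor and the share of shoot marker counts were computed. The strongest was that of the monooxygenase with the shoot marker share (r = -0.85, rho = -0.82, exact permutation p = 0.0243, 0.292 adjusted over 12), and r was -0.61 without the 2 farthest libraries. Other values were further from 0 without the 2 farthest libraries: with the scaling factor r was -0.88 for the monooxygenase, against -0.61 with all libraries, and -0.75 for the protease, against -0.31, and the protease had -0.70 with the marker share, against -0.41. For the tRNA ligase and the phosphoprotein the 6 values ran from 0.10 to 0.43 with all libraries and from 0.13 to 0.57 without the 2 farthest. With the marker share, r rose from 0.43 to 0.57 for the tRNA ligase and from 0.43 to 0.54 for the phosphoprotein. The marker share itself was 2.49% to 3.40% of counts with AI2.2-A and between 2.14% and 2.95% beside CTB P6B8. It was between 1.94% and 2.22% beside MTS P5D6 and between 2.65% and 3.52% in controls. Its part and that of the scaling factor in the values of the 4 transcripts were not tested.

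The genes most like the tRNA ligase and the phosphoprotein were in part the same. A ubiquitin-like gene (LOC117842128; ubiquitin tags proteins for breakdown) came first for both, with r = 0.97 to the tRNA ligase and 0.99 to the phosphoprotein. It averaged 71.9 ± 43.2 CPM with AI2.2-A, 97.5 ± 98.8 beside CTB P6B8 and 139 ± 61.5 beside MTS P5D6, against 4.43 ± 1.67 CPM in controls (SD, n = 4, 3, 4 and 4). It was thus not silent without isolates, and its deviations ran with theirs.

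Next for the tRNA ligase came a 60S acidic ribosomal protein P2B-like gene (LOC117845829, r = 0.97), of the stalk of the large ribosomal subunit, with 4 control counts. After it came a UDP-glucosyltransferase UGT13248-like gene (LOC117864584, r = 0.96), with 1 control count; in barley an enzyme of this name glucosylates the fungal toxin deoxynivalenol. For the phosphoprotein the second was LOC117844426 (r = 0.98), an uncharacterized protein with 5 control counts, and the third a eukaryotic translation initiation factor 6-2-like gene (LOC117857253, r = 0.98), whose product binds the large ribosomal subunit. The initiation factor gene averaged 27.1 ± 16.4 CPM with AI2.2-A, 38.3 ± 43.1 beside CTB P6B8 and 58.8 ± 16.8 beside MTS P5D6, against 1.13 ± 0.545 CPM in controls (SD, n = 4, 3, 4 and 4). With any 1 library left out, these r values to their transcript stayed at 0.94 or above. The genes were picked for the highest r over these same libraries, so this range is a description and no test.

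Of the 129 other tested genes with an SD of at least 1, 10 had r of at least 0.9 to the tRNA ligase and 12 to the phosphoprotein, each counting the other of the pair, against 0 to the protease and 0 to the monooxygenase. The gene LOC117861344, with r = 0.99 to the monooxygenase, had an SD of 0.99, just under that limit. Over all tested genes, 24 had such an r to the tRNA ligase, 33 to the phosphoprotein, 11 to the protease and 34 to the monooxygenase. The SD limit and the r limit were set after the values were seen. An elongation factor 1-alpha-like gene (LOC117842510), also picked after its values were seen, had r = 0.94 to the tRNA ligase and 0.96 to the phosphoprotein. Its product brings loaded tRNAs to the ribosome, and its level was 136 ± 73.9 CPM with AI2.2-A, 168 ± 144 beside CTB P6B8 and 308 ± 90.9 beside MTS P5D6, against 11.4 ± 3.33 CPM in controls (SD, n = 4, 3, 4 and 4).

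The gene most like the monooxygenase of all those tested was the one annotated next to it. LOC117861344, an uncharacterized protein, follows the monooxygenase on the higher-coordinate side of the assembly Setaria_viridis_v4.0 without overlap, and its r was 0.99, ranking 1st of 20309 and running from 0.989 to 0.996 with any 1 library left out. It had 22.0, 3.72, 16.0 and 13.2 CPM in AI2.2-A replicates 1 to 4, 7.92, 30.5 and 6.49 CPM in CTB P6B8 replicates 1 to 3 and 10.2, 6.63, 3.87 and 9.49 CPM in MTS P5D6 replicates 1 to 4. In controls it had 0, 0.0543, 0.0763 and 0.103 CPM, 4 counts in all. The neighbour was thus nearly silent in controls too, and followed the monooxygenase's order of libraries in all 3 isolate groups.

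The gene on the other side, LOC117861751, had 0 counts in all 15 libraries. Beyond it lies a further indole-2-monooxygenase-like gene, LOC117860261, named here after its values were seen, whose r to the monooxygenase was 0.89 (46th). It averaged 53.9 ± 20.4 CPM with AI2.2-A, 71.1 ± 39.7 beside CTB P6B8 and 68.2 ± 11.9 beside MTS P5D6, against 24.5 ± 7.68 CPM in controls (SD, n = 4, 3, 4 and 4), so it was present without isolates. Whether the counting used strand is not known, and reads of near-identical relatives may have been split between genes. The next by likeness were LOC117843090 (r = 0.96), an uncharacterized protein at under 1 CPM in every library, and LOC117857436 (r = 0.96), described as a nascent polypeptide-associated complex subunit alpha.

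**Figure D5:**
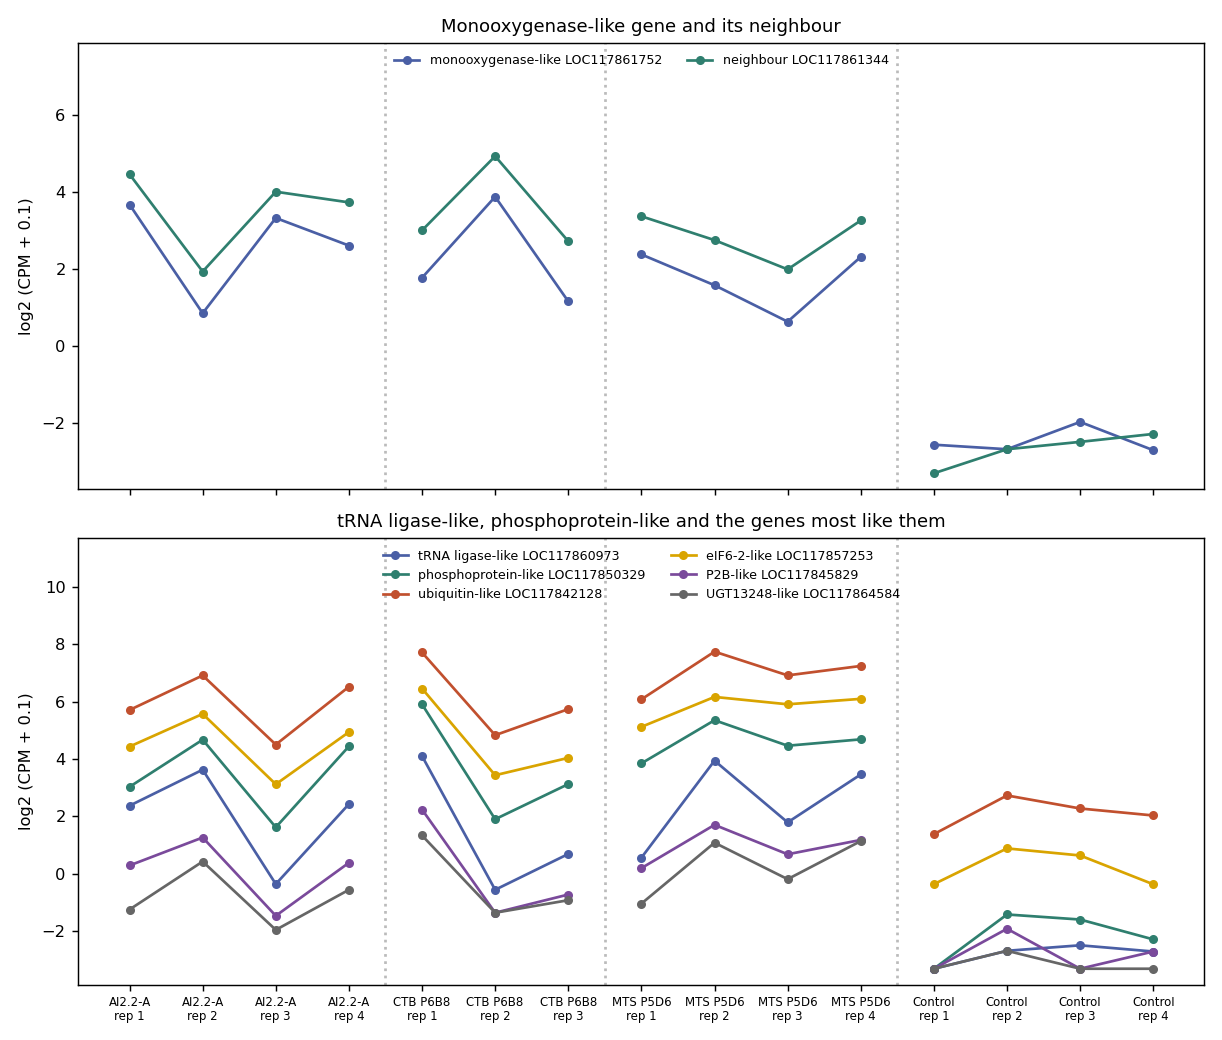
Levels in all 15 libraries, as log2 (CPM + 0.1), of the monooxygenase with its neighbour LOC117861344 (upper panel) and of the tRNA ligase and the phosphoprotein with 4 of the genes most like them (lower panel). The lines of each panel rise and dip in the same isolate libraries, and all of them are lower in each of the 4 controls than in each isolate library.

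For the protease, the genes most like it moved far less than it did. They were LOC117833455 (r = 0.96), described as a helicase FANCM, which acts in DNA repair, LOC117837690 (r = 0.96), a probable serine protease EDA2, and LOC117839756 (r = 0.95), a myb family transcription factor IPN2. Their SDs within groups were 0.17, 0.05 and 0.18 on the log2 scale, against 1.84 for the protease. FANCM averaged 4.36 ± 0.412 CPM with AI2.2-A, 3.66 ± 0.470 beside CTB P6B8 and 2.79 ± 0.382 beside MTS P5D6, against 4.04 ± 0.483 CPM in controls (SD, n = 4, 3, 4 and 4), so it was not silent anywhere.

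The genes annotated beside the other 3 transcripts had lower r values or too few counts. On one side of the protease lies an ervatamin-B-like pseudogene, LOC117867009, which had 0 control counts and reached 0.321 CPM at most, and on the other LOC117834078, with 12 counts over AI2.2-A, 13 over CTB P6B8, 2 over MTS P5D6 and 0 over controls. Both were too low to be tested. Beside the tRNA ligase lie LOC117861578, a cysteine-rich receptor-like protein kinase 10 with r = -0.54, and LOC117860974, an uncharacterized protein with r = 0.11. Beside the phosphoprotein, LOC117849056 had 0 counts in all libraries, and the tRNA gene on the other side is not in the count table. No annotated gene overlaps any of the 4.

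The near relatives of the tRNA ligase and the phosphoprotein by description were abundant without isolates and changed little. The 2 proline--tRNA ligases were named after their values were seen. The gene described as proline--tRNA ligase, cytoplasmic (LOC117848870) averaged 273 ± 14.2 CPM with AI2.2-A, 261 ± 34.3 beside CTB P6B8 and 272 ± 33.6 beside MTS P5D6, against 245 ± 13.4 CPM in controls (SD, n = 4, 3, 4 and 4). Its log2 fold changes of 0.15, 0.09 and 0.15 did not pass the test (adjusted p from 0.183 to 0.480 by edgeR), and its r to the tRNA ligase-like transcript was 0.55. The organelle form (LOC117844519) fell with CTB P6B8 (-0.27 ± 0.09, adjusted p = 0.0207 by edgeR). Its log2 fold changes of -0.07 with AI2.2-A and -0.14 with MTS P5D6 did not pass, and the differences between isolates were not tested for it. The other gene with the phosphoprotein's description (LOC117857796) rose with MTS P5D6 (0.24 ± 0.07, adjusted p = 0.0105 by edgeR), had 0.11 with AI2.2-A and 0.16 with CTB P6B8, and an r of 0.28 to the phosphoprotein-like transcript.

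Of 52 other aminoacyl-tRNA ligases tested, which load amino acids onto tRNAs, 14 rose and 13 fell with AI2.2-A, 7 rose and 22 fell with CTB P6B8, and 7 rose and 13 fell with MTS P5D6 in edgeR's test at an adjusted p under 0.05. Over all genes, 23.4% rose and 24.3% fell with AI2.2-A, 22.6% and 22.7% with CTB P6B8, and 23.9% and 28.3% with MTS P5D6. The list's median log2 fold changes were 0.00, -0.19 and -0.10, beside medians of -0.00, 0.00 and -0.05 over all genes. Isoleucine--tRNA ligase of the organelles (LOC117840186) fell with CTB P6B8 (-0.99 ± 0.10, adjusted p = 2.16e-06), as did cysteine--tRNA ligase CPS1 (LOC117843001, -0.68 ± 0.07, adjusted p = 5.61e-06). Means of both lay below controls beside the other isolates too. The first had 90.4 CPM with AI2.2-A and 65.6 with MTS P5D6, against 114 in controls. The second had 30.4 and 32.5 CPM, against 44.2 in controls. Tyrosine--tRNA ligase 1 (LOC117862168) rose with MTS P5D6 (0.67 ± 0.08, adjusted p = 4.57e-06). A glutamate--tRNA ligase-like gene (LOC117858864), with 8 control counts, rose with AI2.2-A (2.42 ± 0.49, adjusted p = 0.000876) and stayed at 0.679 ± 0.141 CPM there, against 0.120 ± 0.0722 in controls (SD, n = 4 each).

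Between single libraries, the 52 ligases had a median r of 0.48 to the tRNA ligase-like transcript, beside -0.01 over all tested genes, and 16 of them lay above the 95th percentile of all genes. The highest was a mitochondrial valine--tRNA ligase 1-like gene (LOC117837969, r = 0.93), named after its values were seen. It averaged 58.1 ± 21.6 CPM with AI2.2-A, 55.1 ± 31.0 beside CTB P6B8 and 69.8 ± 22.9 beside MTS P5D6, against 23.4 ± 1.94 CPM in controls (SD, n = 4, 3, 4 and 4).

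Of 26 other papain-like cysteine proteases tested, 9 rose and 5 fell with AI2.2-A, 12 rose and 5 fell with CTB P6B8, and 10 rose and 5 fell with MTS P5D6. Over all genes tested, 23.4%, 22.6% and 23.9% rose and 24.3%, 22.7% and 28.3% fell in the same order of isolates, so the 5 of 26 that fell are near or under that background. The medians were 0.19, 0.30 and 0.07 on the log2 scale, beside -0.00, 0.00 and -0.05 over all genes. The list took in the calpain DEK1 and the autophagy protease ATG4B, which are of other families. An XCP1-like protease (LOC117835658), named for a protease of water-conducting vessels, rose with AI2.2-A (3.34 ± 0.31, adjusted p = 9.57e-07 by edgeR), to 3.32 ± 0.572 CPM, against 0.329 ± 0.0748 in controls (SD, n = 4 each). A SAG39-like protease (LOC117835971), of a senescence-linked type, fell with MTS P5D6 (-2.19 ± 0.24, adjusted p = 2.64e-06), to 21.7 ± 2.26 CPM, against 98.7 ± 21.7 in controls (SD, n = 4 each). Its mean was low beside the other isolates too, at 31.7 CPM with AI2.2-A and 42.2 CPM with CTB P6B8. Cathepsin B-like protease 2 (LOC117834746) rose with MTS P5D6 (0.85 ± 0.11, adjusted p = 7.88e-06). It averaged 153 CPM there, 112 with AI2.2-A and 110 with CTB P6B8, against 85.0 in controls.

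The papain-like list had a median r of 0.27 to the protease transcript, and 4 of 26 lay above the 95th percentile of all genes. Highest was an ervatamin-B-like gene (LOC117866305, r = 0.77), named after its values were seen, which stood at 712 ± 98.9 CPM with AI2.2-A, 771 ± 210 beside CTB P6B8 and 466 ± 61.6 beside MTS P5D6, against 479 ± 14.0 CPM in controls (SD, n = 4, 3, 4 and 4). Of 7 cystatins, the protein inhibitors of such proteases, 4 rose with AI2.2-A, 6 beside CTB P6B8 and 6 beside MTS P5D6, and 0 fell with any isolate, against 22.6% to 23.9% of all genes that rose and 22.7% to 28.3% that fell. Cysteine proteinase inhibitor 8-like (LOC117836073) rose with MTS P5D6 (0.90 ± 0.13, adjusted p = 3.04e-05 by edgeR), inhibitor-like LOC117849735 did so by 0.66 ± 0.09 (adjusted p = 1.27e-05) and inhibitor 12 (LOC117858830) by 0.46 ± 0.08 (adjusted p = 0.000106). The cystatins' median r to the protease was -0.12.

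Of 24 other genes with descriptions from benzoxazinoid synthesis and storage, 7 rose and 5 fell with AI2.2-A, 8 rose and 3 fell with CTB P6B8, and 7 rose and 7 fell with MTS P5D6, with medians of -0.03, 0.17 and 0.03 on the log2 scale. Shares over all genes tested were 22.6% to 23.9% higher and 22.7% to 28.3% lower, so the counts that rose with AI2.2-A and MTS P5D6 are near the background. Relatives of the monooxygenase moved both ways: LOC117859916 rose with AI2.2-A (3.01 ± 0.35, adjusted p = 7.48e-06 by edgeR), and LOC117863830 fell with MTS P5D6 (-0.90 ± 0.11, adjusted p = 4.47e-06). LOC117856140, with 10 control counts, rose with AI2.2-A (2.02 ± 0.37, adjusted p = 0.000362), to 0.640 ± 0.136 CPM, against 0.151 ± 0.0415 in controls (SD, n = 4 each).

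An indole-3-glycerol phosphate lyase-like gene (LOC117836702), of the enzyme type that makes the indole used by BX2 in maize, had 0 counts in all 4 controls. It had 287 counts with AI2.2-A, 69 beside CTB P6B8 and 68 beside MTS P5D6. The floor for controls was 3 counts over their scaled library totals, or 0.0457 CPM (68685603 counts before scaling). Against this floor, the gene's pooled level was at least 72.3-fold higher with AI2.2-A, 23.0-fold beside CTB P6B8 and 20.6-fold beside MTS P5D6. It was silent without isolates like the monooxygenase, and yet its deviations between libraries had r = -0.08 to it. With any 1 library left out, r ran from -0.37 to 0.20, and single isolate libraries held as few as 7 counts of the lyase-like gene. Both genes were highest in AI2.2-A replicate 1, CTB P6B8 replicate 2 and MTS P5D6 replicate 1 within their groups.

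Of 15 tryptophan and indole synthesis genes, 9 rose and 1 fell with AI2.2-A, 10 rose and 1 fell with CTB P6B8, and 9 rose and 3 fell with MTS P5D6, with medians of 0.53, 0.64 and 0.72 on the log2 scale, beside -0.00, 0.00 and -0.05 over all genes, of which 22.6% to 23.9% rose and 22.7% to 28.3% fell. Tryptophan synthase beta chain 1 (LOC117861175) rose with MTS P5D6 (0.83 ± 0.09, adjusted p = 1.67e-06 by edgeR), as did tryptophan synthase alpha chain-like (LOC117845783, 0.97 ± 0.11, adjusted p = 2.20e-06). Anthranilate synthase beta subunit 2 (LOC117838028), of the entry step of the pathway, rose with AI2.2-A (0.88 ± 0.11, adjusted p = 9.22e-06). None of the 15 lay above the 95th percentile of r to the monooxygenase, and their median r was -0.32.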

How the data were processed

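Total RNA of shoots was sequenced from libraries made with a stranded total RNA kit, per the labels' protocols. FastQC, Trimmomatic 036, HISAT2, featureCounts and DESeq2 1.6.3 are named in the submitters' processing notes with no role or order. No source used here gives the build, annotation or strand use. The authors deposited raw counts per gene for 28032 genes in 15 libraries, and their 6 pairwise comparisons. These tables of the authors hold, for each gene, a normalized mean signal, a log2 fold change, its error, a score of the test and a p-value whose column repeats the adjusted one. Gene descriptions come from these tables, and neighbours from a RefSeq gene table of the assembly Setaria_viridis_v4.0, in which all 4 genes were found.

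CPM were computed with TMM-scaled totals, and log2 CPM with a prior count of 2. Tests used edgeR 4.0.16 in R 4.3.3 (TMM, filterByExpr, quasi-likelihood F test, two-sided) with all 15 libraries in 1 fit of 4 groups and no replicate block, over 20310 genes, with calls at an adjusted p (Benjamini-Hochberg) below 0.05. Within-group correlations were tested by exact permutation within groups. DESeq2 1.42.0 and limma-voom (limma 3.58.1) were alternatives, beside other scalings, filters, thresholds, prior counts, replicate blocks and each library left out. Figures were drawn with matplotlib 3.10.9 in Python 3.11. The procedures were tested on simulated data.

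The 4 genes and the gene lists were chosen with earlier results of these data known. Named genes were the 4, their annotated neighbours, the 3 genes with the highest r to each, and for each list the 3 genes with the smallest p and any with at most 10 control counts that rose. Fold changes of genes named from a list by this rule are given for the isolate with the smallest p. That choice does not make a change particular to the isolate named. Genes named outside this rule are marked as picked after their values were seen. A further part of the rule, the closest protein relative, was not applied, since protein sequences were not used here. The 21 pairs of libraries within groups had 2.47 to 19.0 as chi-square over degrees of freedom, so none was a second copy. Near-identical genes may share counts.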

Additional observations from a re-analysis of the deposited data

Results flagged for a closer look

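In 126 groups of 4 libraries of the genes named, 5 held 1 library far from the other 3 by Dixon's test, and chance alone gives about 1 in 20. The UDP-glucosyltransferase UGT13248-like gene (LOC117864584) had 0.0543 CPM (1 count) in Control replicate 2 and 0 in the other controls. The protease's neighbour LOC117834078 had 0.103 CPM (2 counts) in MTS P5D6 replicate 3 and 0 in the other MTS P5D6 libraries. Where the other libraries all have 0, any count meets this test, so these 2 flags carry no weight. The tRNA ligase's neighbour LOC117860974 had 80.2 CPM in Control replicate 4, against 70.05 to 71.2 in the other controls. The indole-2-monooxygenase-like gene LOC117863830 had 23.3 CPM in Control replicate 1, against 21.5 to 21.7 in the other controls. The cytoplasmic proline--tRNA ligase LOC117848870 had 323 CPM in MTS P5D6 replicate 2, against 252 to 259 in the other MTS P5D6 libraries. None of the groups of the 4 transcripts themselves met this test.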

How the results depend on the processing

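The correlation of the tRNA ligase and the phosphoprotein kept its sign under all 17 alternatives (0.76 to 0.96), with exact permutation p values, not adjusted over the pairs, from 0.000289 to 0.0243. The 0 calls of the 4 transcripts for CTB P6B8 over AI2.2-A held under all 25 alternatives. For AI2.2-A over MTS P5D6, 1 transcript, the protease, was called by library totals alone (log2 fold change 2.19, adjusted p = 0.0479), by a replicate block on the title numbers (2.41, adjusted p = 0.00438) and by a replicate block on the column numbers (2.63, adjusted p = 0.0110), and the monooxygenase without AI2.2-A replicate 2 (1.43, adjusted p = 0.0378). Over the libraries left out in turn, edgeR called 0 to 1 transcripts for AI2.2-A over MTS P5D6 and 0 to 2 for CTB P6B8 over MTS P5D6. The replicate block on the column numbers turned 3 uncalled differences: 0.25 for the tRNA ligase in AI2.2-A over MTS P5D6, and 0.72 for it and 0.54 for the phosphoprotein in CTB P6B8 over MTS P5D6. Libraries of the same title number were not more alike than others. Over 21 same-numbered pairs the correlations of deviations ran from -0.15 to 0.14, and 1 was over 0.1. Over the 63 other pairs they ran from -0.20 to 0.27. Of 15 libraries, 4 correlated best with their own title number and 2 with their own column number. The labels name no pairing, and these correlations cannot exclude a shared plate or day. With each library left out, log2 fold changes of CTB P6B8 over AI2.2-A ran from -2.94 to 0.18 for the protease, -1.49 to 0.24 for the monooxygenase, -2.41 to 0.79 for the tRNA ligase and -1.21 to 1.23 for the phosphoprotein. Those of AI2.2-A over MTS P5D6 ran from 1.12 to 2.89, 0.72 to 1.43, -1.05 to 0.19 and -1.23 to -0.49 for the 4 in this order. Those of CTB P6B8 over MTS P5D6 ran from -0.85 to 2.10, -0.39 to 1.33, -2.81 to 0.33 and -2.03 to 0.41 for the 4 in the same order. Correlations ran from 0.32 to 0.75 for the protease and the monooxygenase, -0.20 to 0.34 for the protease and the tRNA ligase and -0.40 to 0.20 for the protease and the phosphoprotein. Those of the monooxygenase ran from -0.60 to -0.27 with the tRNA ligase and -0.73 to -0.40 with the phosphoprotein. The near-zero r of the protease and the tRNA ligase turned to 0.00332 with a prior count of 5, 0.091 as Spearman's rho and 0.179 without the 2 farthest libraries. Without those 2, the protease had 0.0732 with the phosphoprotein, and the monooxygenase 0.0769 with the tRNA ligase. Genes called for CTB P6B8 over AI2.2-A numbered 2110, against 871 in a fit of the 2 groups alone, 489 at a threshold of 0.01 and 644 to 2464 with each library left out (644 without CTB P6B8 replicate 2). For CTB P6B8 over MTS P5D6 they numbered 5347, against 2786 with the replicate block on column numbers, 2574 at 0.01 and 3345 to 5649 with each library left out (3345 without CTB P6B8 replicate 3). With AI2.2-A, called cystatins fell to 2 at a threshold of 0.01 and ran from 2 to 5 with each library left out (2 without AI2.2-A replicate 3 or Control replicate 1), and called aminoacyl-tRNA ligases numbered 15 at 0.01. The relative of the phosphoprotein (LOC117857796) was called (1) by library totals with AI2.2-A and CTB P6B8 and by DESeq2 and the fit of 2 groups with CTB P6B8, and not (0) at 0.01 with MTS P5D6. The cause of these shifts was not tested. Counts of 10 to 17 in single isolate libraries and of 3 to 10 over the controls limit the precision of all folds against control.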
